A study of Mus musculus with 16 samples.

Results

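The miR-99, miR-100 and miR-125 families were followed here through 6 mature microRNAs, which were chosen by name from the 1915 entries of the count table: mmu-miR-99a-5p, mmu-miR-99b-5p, mmu-miR-99b-3p, mmu-miR-100-5p, mmu-miR-125a-5p and mmu-miR-125b-5p, with the prefix mmu for the mouse. All 6 had counts in all 16 libraries, and all 6 passed the low-count filter, which left 234 entries for testing. The libraries came from extracellular vesicles (EVs) of bone marrow plasma of 6-month-old C57BL/6N mice, captured on magnetic beads through an HA tag. All mice carried the CAGS-Snorkel reporter, which puts the tag on vesicles after recombination. Its partner was Ocn-Cre, under the osteocalcin promoter of osteoblasts and osteocytes that have matured, in 6 mice of which 3 were male and 3 female. The partner was Prx1-Cre in 10 mice, 5 of either sex. Prx1-Cre is active in the early limb mesenchyme, and limb bone, cartilage and stroma descend from these cells. The groups are called Ocn and Prx1.

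A microRNA guides the Argonaute protein to messenger RNAs that pair with its seed, bases 2 to 8 from its 5′ end, and lowers their translation and stability. miR-99 and miR-100 share a seed and are known to target components of mTOR and IGF1 receptor signalling. miR-125 is the vertebrate relative of lin-4, the first microRNA found in the worm, and miR-125b has been reported to restrain osteoblast differentiation and to be active in blood stem cells. The hairpins of both families lie beside let-7 genes, an arrangement kept through animal evolution.

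The mature sequences below, from RefSeq (GRCm38.p6), show which of the 6 microRNAs share a seed, given in capitals. miR-351-5p, which is encoded on the X chromosome, is added because it has the seed of miR-125.

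mmu-miR-99a-5p: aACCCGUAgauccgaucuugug

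mmu-miR-100-5p: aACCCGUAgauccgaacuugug

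mmu-miR-99b-5p: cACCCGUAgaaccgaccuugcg

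mmu-miR-99b-3p: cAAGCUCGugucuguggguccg

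mmu-miR-125a-5p: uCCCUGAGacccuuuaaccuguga

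mmu-miR-125b-5p: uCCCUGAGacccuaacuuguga

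mmu-miR-351-5p: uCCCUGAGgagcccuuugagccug

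Thus 3 of the 6 carry the seed ACCCGUA, 2 carry CCCUGAG, and miR-99b-3p, the opposite arm of the miR-99b hairpin, has a seed of its own that it shares with miR-99a-3p. miR-99a-5p and miR-100-5p differ at 1 of 22 bases, U16A, counted from the 5′ end with the base of miR-99a-5p first. miR-99a-5p and miR-99b-5p differ at 4 bases (A1C, U11A, U16C and U21C). miR-125b-5p, with 22 bases, and miR-125a-5p, with 24, are identical over the first 13. The sources used here do not say how the authors counted reads that match nearly identical entries, so the split of counts between miR-99a-5p and miR-100-5p is uncertain.

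The hairpins lie in 3 clusters of mm10, all on the plus strand. On chromosome 16, Mir99a (77598936 to 77599000), Mirlet7c-1 (77599657 to 77599750) and Mir125b-2 (77646273 to 77646343) are in introns of the noncoding Mir99ahg. On chromosome 9, Mir100 (41531425 to 41531504), Mirlet7a-2 (41536716 to 41536811) and Mir125b-1 (41581926 to 41582002) are in introns of the noncoding 3110039I08Rik, and Mir125b-1 also lies in an exon of Gm28119. On chromosome 17, Mir99b (17830188 to 17830257) and Mirlet7e (17830352 to 17830444) are in an intron of the protein-coding gene Spaca6, and Mir125a (17830812 to 17830879) overlaps an annotated exon of it. miR-125b-5p is thus made from 2 hairpins on different chromosomes, and its counts cannot be assigned to either. The number of hairpins touches the counts themselves. The identical sequences of miR-199a-3p, from 2 hairpins, and miR-199b-3p, from 1, had counts in a ratio of 2.001 to 2.007 in all 16 libraries. The level of miR-125b-5p, also from 2 hairpins, may therefore not be on the footing of miR-125a-5p, from 1, whereas fold changes between the groups are not touched.

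Library totals ran from 582660 to 1536421 counts in Ocn and from 225273 to 813770 counts in Prx1, so depth differed with the group. Since Cre-free controls and plasma before capture are not part of these libraries, the values carry no background to set them against. MicroRNAs of leukocytes, muscle, erythroid and endothelial cells were abundant in both groups, as were mesenchymal ones. The summed level of 3 leukocyte microRNAs was 37326 to 88808 CPM (counts per 1000000 of the library total) in Ocn, beside 41394 to 66290 CPM for Prx1. That of 3 muscle microRNAs was 46680 to 77323 CPM in Ocn, beside 39775 to 70705 CPM for Prx1. The 5 mesenchymal microRNAs summed to 31426 to 43032 CPM in Ocn, beside 26518 to 34989 CPM for Prx1. The 3 erythroid microRNAs summed to 11591 to 20691 CPM in Ocn, beside 15607 to 23278 CPM for Prx1. The 2 endothelial microRNAs summed to 16712 to 20837 CPM in Ocn, beside 12913 to 19289 CPM for Prx1. In the comparison described below, 1 of 5 mesenchymal entries was called higher in Ocn. In each of the leukocyte, muscle and erythroid lists 1 of 3 was called lower. Over all 234 entries 5.98% were called higher and 7.69% lower. The leukocyte log2 fold changes, Ocn over Prx1, were -1.05 for miR-150-5p (called), -0.27 for miR-223-3p and 0.09 for miR-142a-3p. The muscle ones were -0.68 for miR-133a-3p (called), -0.29 for miR-206-3p and 0.34 for miR-1a-3p. The erythroid ones were -0.38 for miR-486a-5p (called), 0.22 for miR-451a and 0.58 for miR-144-3p. The endothelial list had 0 of 2 called. Of the 2 neural microRNAs, miR-124-3p was at 0 in all libraries and miR-9-5p at 13.3 to 40.2 CPM. A pair of libraries stood apart. The liver microRNA miR-122-5p was at 1644 CPM in Prx1 5 and at most at 23.5 CPM in the other libraries, and the leukocyte sum in Ocn 3, 88808 CPM, lay above the next Ocn library at 50803 CPM.

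The 6 microRNAs together made up 2.10% ± 0.44 of the counts in the Ocn libraries (SD, n = 6) against 1.88% ± 0.57 in those of Prx1 (SD, n = 10). Most of this was the miR-125 pair. In both groups the mean CPM decreased in the order miR-125b-5p, miR-125a-5p, miR-99a-5p, miR-99b-5p, miR-100-5p and miR-99b-3p. This order held between neighbours in 16 of 16 libraries with 1 exception: miR-99a-5p was above miR-99b-5p in 6 of 6 Ocn libraries but in 7 of 10 Prx1 libraries. Because adaptor ligation favours some sequences and miR-125b-5p may be counted at 2 hairpins, the order is one of counts and not of molecules. The ratio of miR-125b-5p to miR-125a-5p ran from 1.53 to 2.06 in Ocn and from 1.35 to 3.64 in Prx1. Counting at 2 hairpins could therefore decide which of this pair is higher where the ratio is under 2. The median ratio was 1.82 in Ocn and 2.52 in Prx1.

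**Figure D1:**
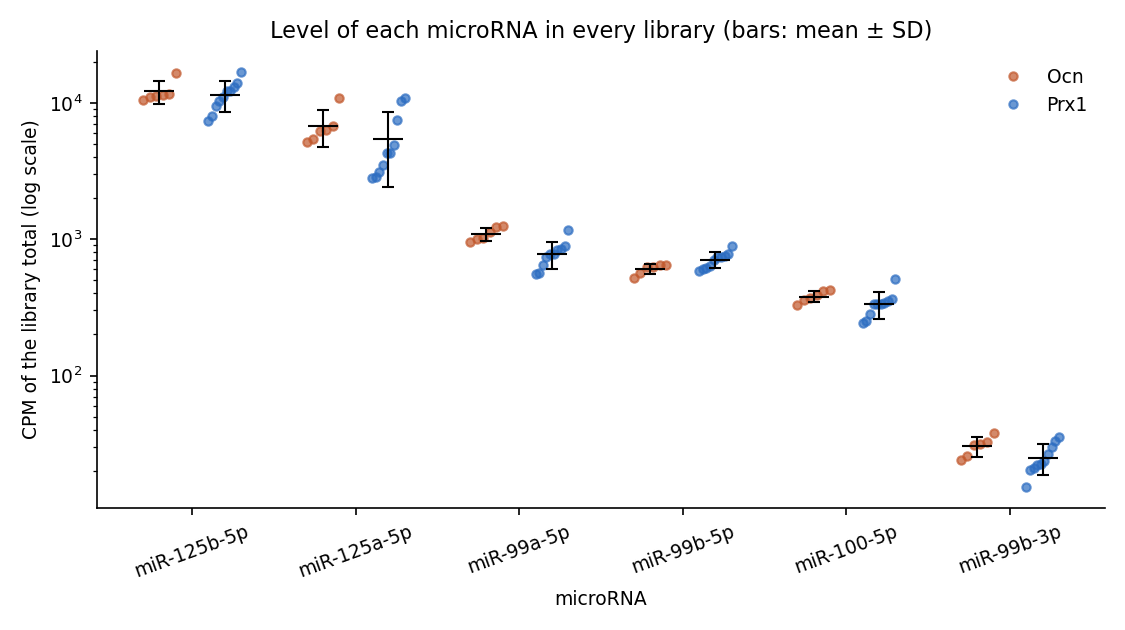
CPM of the library total (log axis) of the 6 microRNAs, 1 point per library, sorted within a group, with Ocn in orange, Prx1 in blue and bars at the mean ± SD. For miR-99a-5p, 1 of 10 Prx1 libraries lies above the lowest Ocn library, while 2 of 6 Ocn libraries lie above all Prx1 libraries. miR-125a-5p has the widest spread within Prx1, from 2810 to 10901 CPM.

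Between the drivers, miR-99a-5p was higher in Ocn and was the member that passed the test. Its level was 959 CPM in the lowest Ocn library, 1071 at the median and 1248 in the highest, against 554, 775 and 1162 CPM in Prx1. Only 1 of 10 Prx1 libraries, Prx1 10, reached above the lowest Ocn library, and in 3.85% of all entries the groups did not overlap at all. The means were 1096 ± 120 CPM in the Ocn libraries (SD, n = 6) against 780 ± 178.5 CPM in those of Prx1 (SD, n = 10). In edgeR's quasi-likelihood fit over all 234 entries, with TMM scaling, miR-99a-5p was 1.37-fold higher in Ocn (95% interval 1.13 to 1.67), a log2 fold change of 0.45 (SE 0.14, adjusted p = 0.0278). In that fit 13.7% of all entries were called, with 5.98% higher in Ocn and 7.69% lower. A count of 1 of 6 higher is too small to be set apart from that share. The median log2 fold change of the 6 was 0.20, beside 0.01 over all entries. More vesicles with the microRNA and more copies per vesicle cannot be told apart in such libraries. The summed mesenchymal microRNAs given above also had the higher range in Ocn. That sum is mostly miR-199a-3p and miR-143-3p. The log2 fold changes of the 5 entries were 0.43 for miR-199a-5p, which was called, and, with no call, 0.29 for miR-143-3p, 0.11 for miR-199a-3p, -0.19 for miR-145a-5p and -0.29 for miR-214-3p. Their part in the difference was not tested.

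The call of miR-99a-5p ended when all libraries were thinned to the depth of the shallowest (edgeR adjusted p = 0.0554), when the log10 library total entered the model (log2 fold change 0.43, edgeR adjusted p = 0.319, with 0 of all 234 entries called and 40 at an unadjusted p under 0.05) and when its counts were summed with those of miR-100-5p (edgeR adjusted p = 0.0800). It also ended without any one of Ocn 4, Ocn 6, Prx1 1, Prx1 2, Prx1 3, Prx1 4, Prx1 6 or Prx1 7 (highest edgeR adjusted p = 0.0870), while the log2 fold change stayed between 0.38 and 0.53 over the 16 fits with a library left out. The call held without Ocn 3 (0.49, edgeR adjusted p = 0.0370) and without Prx1 5 (0.47, edgeR adjusted p = 0.0487).

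**Figure D2:**
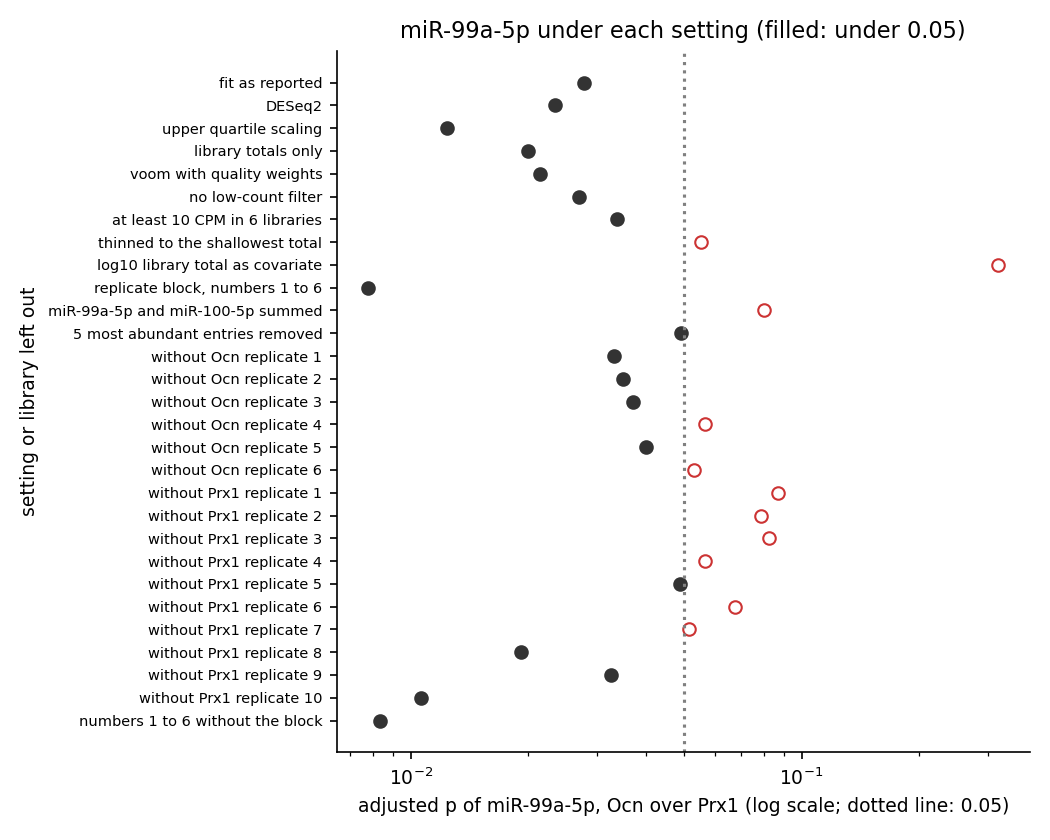
Adjusted p of miR-99a-5p (log axis) in the reported fit, under each other setting and with each library left out; filled points are under 0.05, marked by the dotted line. The fit as reported stands at 0.0278, and the covariate for library total gives the highest value, 0.319.

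miR-100-5p, the nearest relative of miR-99a-5p by sequence, did not pass. It ran from 327 CPM over a median of 379 to 420 CPM in Ocn and from 242 over 337 to 508 CPM in Prx1, so that the Ocn range lay within that of Prx1. Its log2 fold change was 0.15 (SE 0.13, edgeR adjusted p = 0.520), and the 95% interval of the fold was 0.916 to 1.34. Prx1 10, the highest Prx1 library in miR-99a-5p as well, stood apart from the other Prx1 libraries, which ended at 364 CPM. Without Prx1 10 the log2 fold change of miR-100-5p was 0.22 (SE 0.11, edgeR adjusted p = 0.216).

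miR-99b-5p, the remaining microRNA with this seed, had a lower mean in Ocn, with 603 ± 49.5 CPM in the Ocn libraries (SD, n = 6) against 705 ± 95.5 CPM in those of Prx1 (SD, n = 10). Its libraries ran from 520 over a median of 623 to 644 CPM in Ocn and from 585 over 723 to 891 CPM in Prx1. All 6 Ocn libraries were below the Prx1 mean, and all 10 Prx1 libraries exceeded the lowest Ocn library. The groups overlapped, however, as 4 Prx1 libraries lay below the highest Ocn library. The log2 fold change was -0.26 (SE 0.11, edgeR adjusted p = 0.117). No member was called lower in Ocn with edgeR or DESeq2, and 1 had an unadjusted p under 0.05 in that direction, miR-99b-5p. With limma voom it passed (-0.28, voom adjusted p = 0.0487).

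The ratio of miR-99a-5p to miR-99b-5p within a library needs no scaling between libraries, and here the groups did not overlap. The ratio ran from 1.57 over a median of 1.90 to 2.01 in Ocn and from 0.899 over 1.10 to 1.30 in Prx1. Its mean was 1.82 ± 0.20 in the Ocn libraries (SD, n = 6) against 1.10 ± 0.14 in those of Prx1 (SD, n = 10). Among all 27261 pairs of tested entries, 1.69% had ratios that did not overlap between the groups. No test was made of this ratio, as the pair combines the members with the highest and the lowest log2 fold change. The ratio of miR-99a-5p to miR-100-5p was 2.89 ± 0.21 in the Ocn libraries (SD, n = 6) against 2.36 ± 0.39 in those of Prx1 (SD, n = 10), and its ranges, 2.70 to 3.16 and 1.65 to 2.97, did overlap. Summed over the 3 microRNAs with the seed ACCCGUA, the level was 2078.5 ± 167 CPM in the Ocn libraries (SD, n = 6) against 1820.0 ± 331 CPM in those of Prx1 (SD, n = 10).

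**Figure D3:**
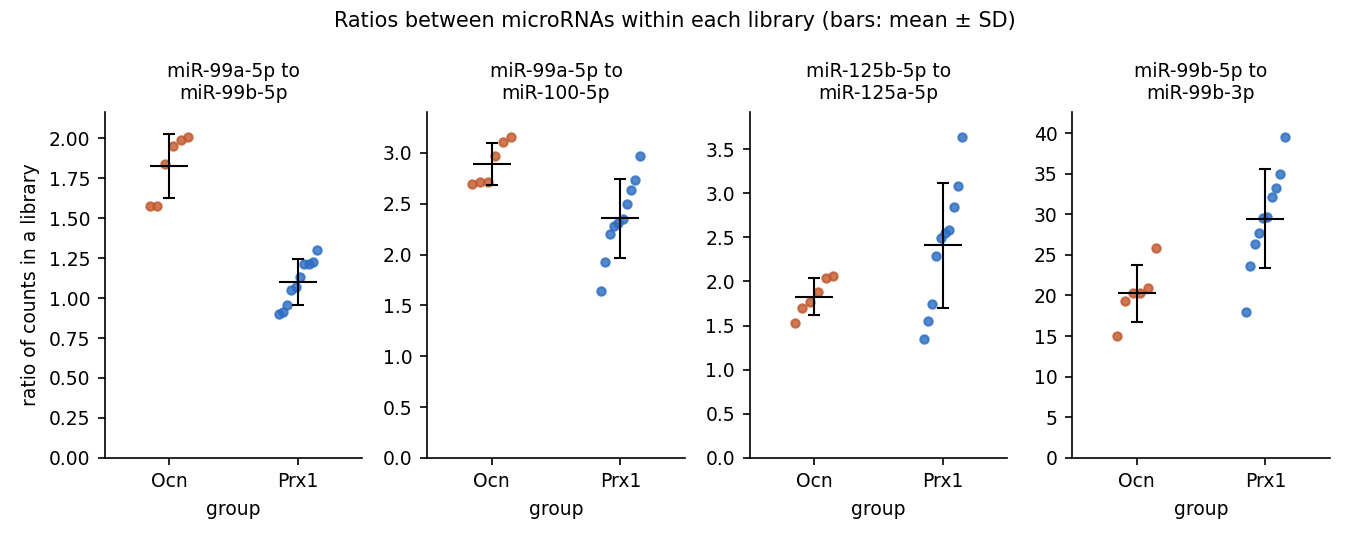
Ratio of counts within each library for 4 pairs of microRNAs, 1 point per library, with bars at the mean ± SD. For miR-99a-5p to miR-99b-5p every Ocn library lies above every Prx1 library, whereas the other 3 ratios overlap between the groups.

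miR-99b-3p is the less abundant arm of its hairpin. It ran from 24.0 over a median of 31.2 to 37.75 CPM in Ocn and from 15.2 over 22.9 to 35.5 CPM in Prx1, on 5 to 58 counts per library. Its spread within groups, a coefficient of variation of 16.3% in Ocn and 25.3% in Prx1, was no larger than counting error alone gives at these depths (20.5% and 34.5%). Its log2 fold change was 0.24 (SE 0.20, edgeR adjusted p = 0.460). The arms of the hairpin thus had log2 fold changes of opposite sign. The 5p to 3p ratio averaged 20.3 ± 3.5 in the Ocn libraries (SD, n = 6) against 29.5 ± 6.1 in those of Prx1 (SD, n = 10) and was below the Prx1 mean in 6 of 6 Ocn libraries. In a limma fit of the log2 ratio over 50 pairs of arms, of which 6% passed, the difference of -0.48 (SE 0.18) did not pass (limma adjusted p = 0.114).

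miR-125b-5p had the most counts of the members and ranked as number 18 of all entries by mean CPM, with the limit set by its 2 hairpins. It ran from 10567 CPM over a median of 11352 to 16601 CPM in Ocn and from 7355 over 11649 to 16953 CPM in Prx1, and the Ocn range lay inside the Prx1 range. The log2 fold change was 0.04 (SE 0.16, edgeR adjusted p = 0.885), and the 95% interval of the fold was 0.815 to 1.29. Ocn 3 stood apart at the top of its group, as the other 5 Ocn libraries ended at 11672 CPM. The same library had the highest leukocyte sum, given above, and the highest mesenchymal sum (43032 CPM), and their part in its miR-125 levels was not tested. Without Ocn 3 the log2 fold change was -0.0022 (SE 0.18, edgeR adjusted p = 0.995).

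The 3p arms of miR-125b differ between its hairpins, so each can be assigned to a single hairpin, at low counts of 9 to 112 per library. Whether their levels follow the output of that hairpin was not tested. Their sequences, with the seeds in capitals, show how they can be told apart.

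miR-125b-1-3p (chromosome 9): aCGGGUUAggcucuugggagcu

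miR-125b-2-3p (chromosome 16): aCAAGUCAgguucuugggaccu

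miR-125b-1-3p averaged 58.9 ± 18.6 CPM in the Ocn libraries (SD, n = 6) against 44.6 ± 13.3 CPM in those of Prx1 (SD, n = 10), with a log2 fold change of 0.38 (SE 0.22, edgeR adjusted p = 0.268). miR-125b-2-3p averaged 70.2 ± 12.1 CPM and 52.2 ± 17.6 CPM, with a log2 fold change of 0.42 (SE 0.18, edgeR adjusted p = 0.146), and was above the Prx1 mean in 6 of 6 Ocn libraries. Its value in Prx1 4, 97.7 CPM on the shallowest library, lay far above the other Prx1 libraries, which ended at 60.1 CPM. Without Prx1 4 the log2 fold change was 0.53 (SE 0.16) and passed (edgeR adjusted p = 0.0351). Neither 5p to 3p ratio of miR-125b passed (limma adjusted p = 0.535 with miR-125b-1-3p and 0.329 with miR-125b-2-3p). Both use the pooled counts of miR-125b-5p, so neither is the ratio of a single hairpin. The ratio of miR-125b-2-3p to miR-125b-1-3p was 1.26 ± 0.27 in the Ocn libraries (SD, n = 6) against 1.23 ± 0.40 in those of Prx1 (SD, n = 10). The other 3 opposite arms, miR-99a-3p, miR-125a-3p and miR-100-3p, did not pass the filter. miR-99a-3p had 90 counts over all libraries, miR-125a-3p had 72, and miR-100-3p had 0.

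miR-125a-5p varied more between mice than any other member, in both groups. Its level was 5182 CPM in the lowest Ocn library, 6287 at the median and 10869 in the highest. In Prx1 it was 2810, 4296 and 10901 CPM. The high libraries were Ocn 3 (10869 CPM), Prx1 6 (10901 CPM), Prx1 7 (10333 CPM) and Prx1 1 (7538 CPM), while the other 7 Prx1 libraries lay between 2810 and 4901 CPM. The other 5 Ocn libraries, at 5182 to 6743 CPM, all fell in the gap between these Prx1 libraries. The coefficient of variation was 30.7% in Ocn and 56.0% in Prx1, where counting error alone gives 1.34% and 2.52%.

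The means of miR-125a-5p were 6791 ± 2085 CPM in the Ocn libraries (SD, n = 6) against 5452 ± 3054 CPM in those of Prx1 (SD, n = 10), and its log2 fold change of 0.26 (SE 0.31) did not pass (edgeR adjusted p = 0.652). The ratio of miR-125b-5p to miR-125a-5p was 1.83 ± 0.21 in the Ocn libraries (SD, n = 6) against 2.41 ± 0.71 in those of Prx1 (SD, n = 10), and summed with miR-351-5p the seed CCCUGAG reached 19153 ± 4308 CPM and 17168 ± 5751 CPM. The 95% interval of the fold of miR-125a-5p, 0.766 to 1.88, was the widest of the 6. Without Ocn 3 the log2 fold change was 0.15 (SE 0.34, edgeR adjusted p = 0.810). By the SD of log2 CPM over the 16 libraries, miR-125a-5p ranked as number 30 of 234 (SD 0.66, beside a median of 0.39 over all entries), whereas miR-99b-5p was among the steadiest, at rank 219 (SD 0.20).

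The entries most like miR-125a-5p were sought by the SD of the log2 ratio to it over the 16 libraries, where a small SD means that 2 microRNAs keep a fixed ratio. Of 233 other tested entries miR-328-3p came first (SD 0.32), followed by miR-31-5p (SD 0.38) and its own paralog miR-125b-5p (SD 0.40). With group means removed the same 3 came first in the same order. miR-328-3p had 1043.5 CPM in Ocn 3, 671 in Prx1 1, 813 in Prx1 6 and 907 in Prx1 7, and its medians were 490 CPM over Ocn and 334 CPM over Prx1. The fourth was the muscle microRNA miR-1a-3p (SD 0.44). The summed level of the 3 muscle microRNAs was 64441 CPM in Ocn 3, 59414 in Prx1 1, 61664 in Prx1 6 and 70705 in Prx1 7, but it was highest in Ocn 5 (77323 CPM), where miR-125a-5p was lowest of the Ocn libraries. The part of muscle microRNAs in the spread of miR-125a-5p was not tested. Ocn 3 was the shallowest Ocn library, with 582660 counts, and Prx1 1, Prx1 6 and Prx1 7 held 314389, 281540 and 393507 counts, within the range of the other Prx1 libraries.

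The direct neighbours of Mir125a did not follow all of these high libraries. miR-99b-5p, whose hairpin ends 554 bases before that of miR-125a, ranked only as number 115 in likeness to it (SD 0.76), and let-7e-5p, 367 bases away, as number 78 (SD 0.70). In Ocn 3 the neighbours moved apart, as let-7e-5p was at 2365 CPM, the lowest of its 16 values, where miR-125a-5p was at 10869 CPM. In Prx1 6, however, let-7e-5p had its highest Prx1 value, 4564 CPM. It was at 4457 CPM in Prx1 7 and 3582 CPM in Prx1 1, beside a Prx1 median of 4151 CPM. The ratio of miR-125a-5p to miR-99b-5p was 17.5 in Ocn 3, 17.05 in Prx1 6 and 17.2 in Prx1 7, and between 3.81 and 12.9 in the other libraries. This spread lies within a single cluster of hairpins.

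**Figure D4:**
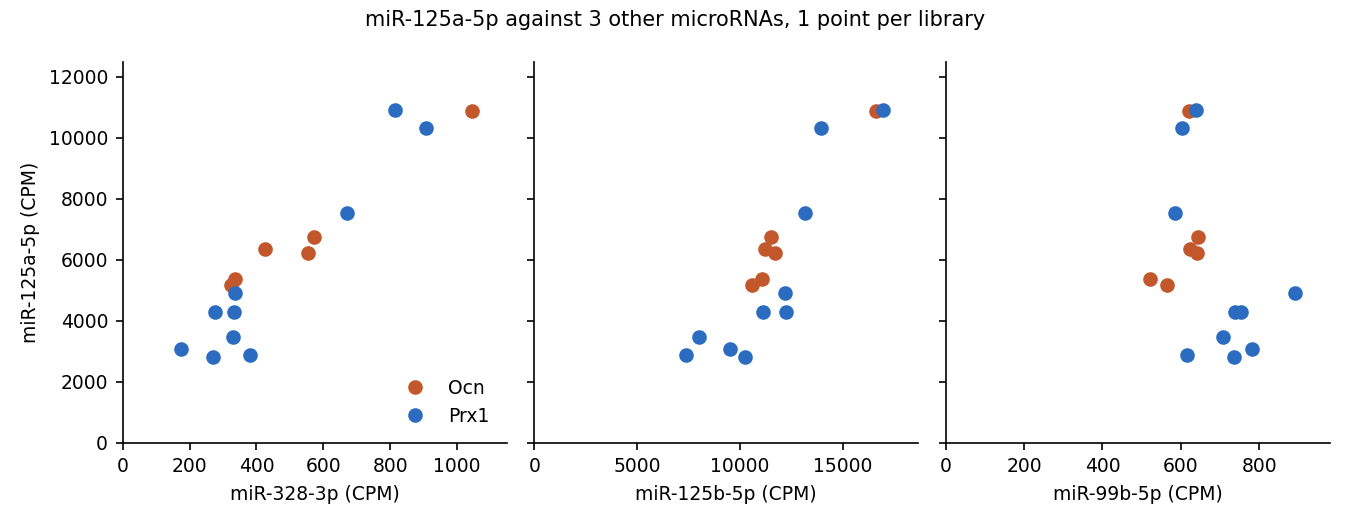
miR-125a-5p (vertical axis, CPM) against miR-328-3p, miR-125b-5p and miR-99b-5p (horizontal axes, CPM), 1 point per library, with Ocn in orange and Prx1 in blue. The 4 libraries highest in miR-125a-5p are also the 4 highest in miR-328-3p and in miR-125b-5p, while miR-99b-5p, encoded 554 bases away, stays between 520 and 891 CPM.

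The 3 microRNAs with the seed ACCCGUA, whose hairpins are on 3 chromosomes, were near each other by this measure only after group means were removed. Over the 16 libraries as they stand, miR-99b-5p was number 44 in likeness to miR-99a-5p (SD 0.41). In the other direction, miR-99a-5p was number 87 in likeness to miR-99b-5p. With group means removed, miR-99b-5p was the entry most like miR-99a-5p (SD 0.18) and the one most like miR-100-5p (SD 0.17), each time out of 233. Entries of other seeds came about as near. miR-10b-5p followed for miR-99a-5p (SD 0.19) and miR-378a-3p for miR-100-5p (SD 0.19), and the entry most like miR-99b-5p was miR-199a-3p (SD 0.14), with miR-100-5p and miR-99a-5p at ranks 3 and 4. Over all 16 libraries, where the group difference counts too, the entries most like miR-99a-5p were miR-27b-3p (SD 0.23), miR-143-3p, of smooth muscle and stroma (SD 0.25), and miR-100-5p (SD 0.25). Those most like miR-100-5p were miR-378a-3p (SD 0.19), miR-199a-3p and miR-199b-3p (SD 0.22 each), those most like miR-99b-5p were miR-1198-5p (SD 0.20), miR-10b-5p (SD 0.21) and let-7i-5p (SD 0.22), and those most like miR-99b-3p were miR-93-5p (SD 0.27), miR-26a-5p (SD 0.28) and miR-199b-3p (SD 0.29). For miR-125b-5p they were miR-152-3p (SD 0.27), miR-31-5p (SD 0.27) and miR-199b-3p (SD 0.29). All these SDs come from the same 16 libraries. A small SD is easier to reach between abundant and steady entries, and miR-199a-3p and miR-199b-3p, of 1 sequence, count as 1 observation.

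Whether ratios between neighbouring hairpins differed between Ocn and Prx1 was asked with a limma fit of log2 ratios. It covered all 158 pairs of tested entries encoded within 100 kb on the same strand. Of these 5.06% passed, 0.633% with a higher ratio in Ocn and 4.43% with a lower one. The entry written first in a pair was set by name, so this split has no direction of its own. Of the 15 pairs with a member or its opposite arm, 0 passed with limma and 4 had an unadjusted p under 0.05, beside 38 of all 158 pairs, a like share. The smallest adjusted p belonged to miR-99a-5p and let-7c-5p, whose hairpins are 656 bases apart. Their log2 ratio differed by 0.53, Ocn minus Prx1 (SE 0.17, limma adjusted p = 0.0602), and was above the Prx1 mean in 6 of 6 Ocn libraries. It passed when adjusted over pairs within 10 kb alone (limma adjusted p = 0.0481) and also without Ocn 4, with a difference of 0.63 (limma adjusted p = 0.0408). let-7c-5p has another hairpin, on chromosome 15, so this ratio is not one of a single transcript. The log2 ratio of miR-125b-5p to miR-99a-5p differed by -0.41 (SE 0.19), which did not pass (limma adjusted p = 0.186). The hairpin of miR-125b-2-3p lies in the same cluster as Mir99a. Its log2 ratio to miR-99a-5p differed by -0.07 (SE 0.18, limma adjusted p = 0.793).

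On chromosome 17, the log2 ratio of miR-125a-5p to miR-99b-5p differed by 0.67 (SE 0.34, limma adjusted p = 0.235) and that of miR-99b-5p to let-7e-5p by -0.17 (SE 0.19, limma adjusted p = 0.609). On chromosome 9, the log2 ratio of miR-100-5p to miR-125b-5p differed by 0.10 (SE 0.23, limma adjusted p = 0.787). That of miR-100-5p to miR-125b-1-3p differed by -0.17 (limma adjusted p = 0.660). Ratios to let-7a-5p differed by 0.44 for miR-100-5p, 0.61 for miR-125b-1-3p and 0.34 for miR-125b-5p (lowest limma adjusted p = 0.179). Those to let-7c-5p differed by 0.46 for miR-125b-2-3p and 0.12 for miR-125b-5p (lowest limma adjusted p = 0.186). Those to let-7e-5p differed by 0.50 for miR-125a-5p and 0.31 for miR-99b-3p (lowest limma adjusted p = 0.355).

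The let-7 partners themselves did not differ past the threshold. let-7c-5p was at 84062 ± 10657 CPM in the Ocn libraries (SD, n = 6) against 85392 ± 14103 CPM in those of Prx1 (SD, n = 10), with a log2 fold change of -0.05 (SE 0.13) that turned to 0.07 with upper quartile scaling. let-7e-5p had -0.05 (SE 0.16), also 0.07 with that scaling, and let-7a-5p, which has another hairpin on chromosome 13, had -0.21 (SE 0.15, lowest edgeR adjusted p of the 3 = 0.353). Of the 9 guide arms of the let-7 family, 0 were called with edgeR, DESeq2 or voom and 0 had an unadjusted p under 0.05, with a median log2 fold change of -0.05. Over all 234 entries, edgeR called 32 and 62 had an unadjusted p under 0.05. miR-351-5p, which shares the seed of miR-125, was at 259 ± 19 CPM in the Ocn libraries (SD, n = 6) against 255 ± 65 CPM in those of Prx1 (SD, n = 10), with a log2 fold change of -0.02 (SE 0.16, edgeR adjusted p = 0.936) that turned to 0.11 with upper quartile scaling.

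**Figure D5:**
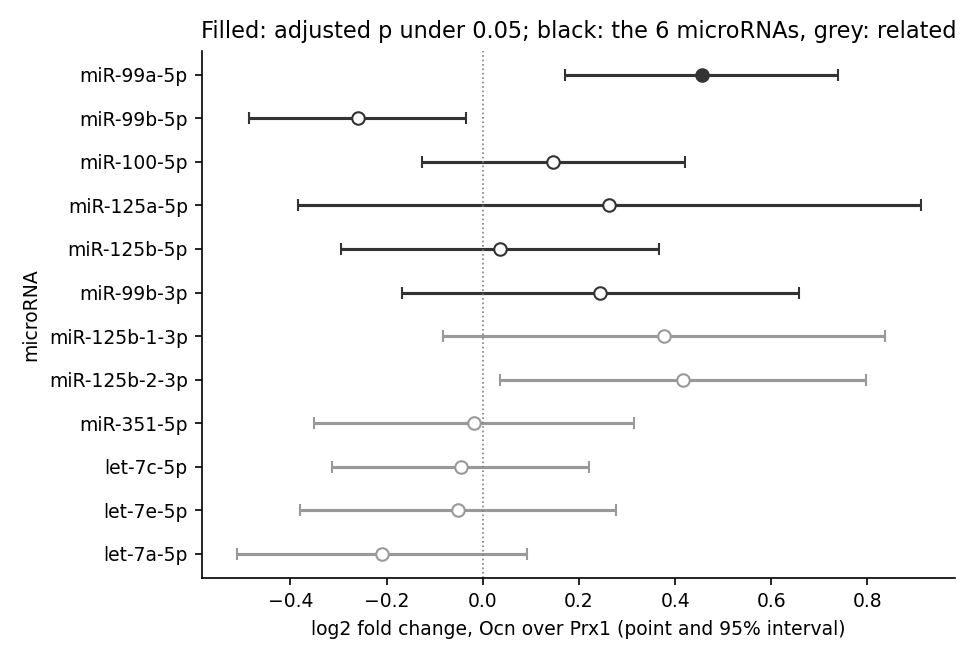
Log2 fold change of Ocn over Prx1 with its 95% interval for the 6 microRNAs (black) and related entries (grey); a filled point has an adjusted p under 0.05. miR-99a-5p, at 0.45, is the filled point, and miR-125a-5p has the widest interval.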

How the data were processed

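The deposited table holds raw counts per mature microRNA, 1 column per library, with no normalization by the authors; the unit was taken from the values. Per the labels' protocols, the input of each QIAseq miRNA library was 1 ng of RNA. The submitters' processing notes name cutadapt 1.18 and mm10. No label says how reads were aligned and counted or whether molecular identifiers were used, so the counting errors given may be too small. Groups follow the titles, and sex is not given per library.

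The counts were tested with edgeR 4.0.16 in R 4.3.3 (filterByExpr, TMM, robust quasi-likelihood F test, Benjamini-Hochberg over 234 entries, threshold 0.05). SE is the log2 fold change divided by the root of F. Ratios of arms and of neighbouring hairpins were fitted with limma 3.58.1 after adding 0.5 to each count. Hairpins are from GENCODE, in which 1893 of 1915 entries matched by name, and all 6 members matched a RefSeq mature sequence. No 2 libraries of a group agreed within sampling noise (chi-square at least 5.42 times its degrees of freedom in 60 pairs). Alternatives were DESeq2 1.42.0, voom, other scalings and filters, thinning, a covariate for depth, a replicate block and leaving out each library. The fits were also run on simulated data, in which every changed entry had a larger fold than miR-99a-5p. Those runs therefore do not show the power at its fold. The members, lists and tests were chosen with earlier results of these data known. Named entries are the members, their opposite arms, let-7 neighbours, entries with the same seed and the 3 entries most like each member.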

Additional observations from a re-analysis of the deposited data

Results flagged for a closer look

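The 24 groups examined come from the same libraries and are not independent, so their count cannot be set against chance, about 1 in 20. In 5 of the 24 groups, 1 library stood apart from its group by Dixon's test. Ocn 3 did so in 3 of them, with miR-125a-5p at 10869 CPM (next library 6743), miR-125b-5p at 16601 CPM (next 11672) and let-7a-5p at 32050 CPM, below the next at 57931. Ocn 3 also had the highest leukocyte sum, 88808 CPM (next Ocn library 50803). miR-100-5p in Prx1 10 was at 508 CPM (next 364), and miR-125b-2-3p in Prx1 4 at 97.7 CPM (next 60.1). Their causes were not tested.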

How the results depend on the processing

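Values are log2 differences, Ocn over Prx1. miR-99a-5p was 0.42 thinned to the shallowest total, 0.43 with the depth covariate and 0.35 summed with miR-100-5p, so 0 members were called higher there; in the other settings it stayed called. With a library left out it ran from 0.38 to 0.53 and members called higher were 0 or 1. With voom miR-99b-5p was -0.28 and 1 member was called lower. The depth covariate moved miR-125a-5p from 0.26 to 0.86 (edgeR adjusted p = 0.343). The log2 ratio of miR-99a-5p to let-7c-5p was 0.53 within 10 kb and 0.45 to 0.63 with a library left out.

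Signs turned for small differences; the cause was not tested. miR-351-5p was 0.11 with upper quartile scaling, 0.015 with library totals, 0.041 with voom, 0.058 without the filter and 0.11 thinned. let-7c-5p was 0.069 with upper quartile scaling, 0.019 with voom, 0.029 without the filter and 0.011 with the covariate. let-7e-5p was 0.067, 0.015 and 0.023 in the first 3 of these. With a library left out, miR-125b-5p ran from -0.049 to 0.12, miR-351-5p from -0.093 to 0.055, let-7c-5p from -0.15 to 0.056, let-7e-5p from -0.17 to 0.11, and the log2 ratios of miR-125a-5p to miR-99b-3p from -0.011 to 0.39, of miR-125b-2-3p to miR-99a-5p from -0.12 to 0.030 and of miR-125b-5p to let-7c-5p from -0.018 to 0.20. Upper quartile scaling moved the median of all entries to 0.13, and miR-99b-3p could not be fitted after thinning.

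Replicate numbers did not pair the libraries: same-numbered libraries correlated at 0.01 to 0.22, and 1 of 6 Ocn libraries matched its own number best. With the numbers 1 to 6 as a replicate block miR-99a-5p was 0.67 (edgeR adjusted p = 0.00779), and in the same 12 libraries without the block, a fit added after seeing the data, 0.65. miR-351-5p was 0.13 and 0.073, let-7c-5p 0.070 and 0.066, and let-7e-5p 0.033 and 0.052. The block changed no call of a member. Calls over all entries, 14 higher and 18 lower, became 26 and 11 with upper quartile scaling, 24 higher with voom, 7 higher thinned, and 9, 8 and 9 higher without Prx1 1, 2 or 3. The low counts of miR-99b-3p and the 3p arms of miR-125b limit what can be seen there, and the shallower Prx1 libraries limit every comparison.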
